A study of Mus musculus with 11 samples.

Results

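Transcript levels of 10 genes that are characteristic of germinal centre B cells were described in mouse lymphomas: Mef2b, Lmo2, Mybl1, Gna13, Rgs13, Fas, Efnb1, Plxnb2, Myo1e and Basp1. They were taken by name from the array, where 13 of 39429 non-control probes carried one of these names, and they stand among 31444 gene names in all. The samples were 11 lymph node tumours of Black 6 mice, each measured on an array of its own: 4 were plasma cell lymphomas, called PCL here, 3 were mantle cell lymphomas (MCL), and the other 4 were Burkitt lymphomas (BL). Every tumour came from an animal of the genotype c-myc-3'RR/p53+/-, in which a c-myc transgene is under the 3'RR, the downstream enhancer region of the Igh locus that is active in B lineage cells, and 1 allele of p53 is lost. The labels place all tumours at the mature B cell stage and give RNA integrity numbers from 8 to 10, and 0.2 micrograms of RNA were used per sample. Non-malignant B cells and mice without the transgene were not analysed here, so the comparisons are between lymphoma types only. The design text counts 3 MCL but numbers them up to 4. That each tumour came from a mouse of its own is not in the labels, so the spread behind the p-values is that between these samples and may be technical.

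Germinal centres are the sites in lymphoid follicles where activated B cells divide, mutate their immunoglobulin genes and are selected for affinity. The cells cycle between a dark zone of dividing centroblasts and a light zone where they meet antigen on follicular dendritic cells and help from follicular helper T cells. Cells of this stage are held in the follicle by receptors that act through Gna13, express Fas, which makes them sensitive to death signals, and switch on a set of transcription regulators around Bcl6. Burkitt lymphoma in humans is known to resemble centroblasts, most mantle cell lymphomas to resemble B cells that have not passed through a germinal centre, and plasma cell tumours to resemble cells that have left it.

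The probes were 60 bases long, and their positions are those of mouse build mm9 as the files give them. Mef2b had 2 probes and Gna13 had 3, while each other gene had 1. The files do not give the exon or the untranslated region that a probe lies in. The probes behind the genes with the largest spread or difference are shown here, and those of Mef2b and Gna13 are all shown because the agreement between probes of the same transcript bears on the results. For 2 probes whose bases read through as known coding sequence the whole probe is printed, and for the others the first 30 bases, all 5′ to 3′ and in lower case, with no bases singled out.
Mef2b probe A_55_P1959784, chr8:72691191-72691250, + strand, first 30 bases: aagaggttcctccagcctccacagagttcc
Mef2b probe A_55_P1963232, chr8:72689021-72689080, + strand, within the part that encodes the DNA-binding domain: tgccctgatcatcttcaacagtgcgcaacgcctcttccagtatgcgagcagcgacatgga
Gna13 probe A_51_P286563, chr11:109262286-109262345, + strand, first 30 bases: cttagtagaggcacacagtgcagaccttat
Gna13 probe A_65_P10399, chr11:109261445-109261503, + strand, first 30 bases: tatggtacgagtttagggcttagtcagttt
Gna13 probe A_55_P2041784, chr11:109257528-109257587, + strand, coding: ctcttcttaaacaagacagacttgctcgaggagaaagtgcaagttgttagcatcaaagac
Efnb1 probe A_51_P388478, chrX:96343505-96343564, + strand, first 30 bases: ttttggaccctcatgagacaatgctgttcc
Rgs13 probe A_55_P2078370, chr1:145985824-145985883, - strand, first 30 bases: gacaccttattgtaccttactatgaacatt
Fas probe A_55_P2091676, chr19:34402164-34402223, + strand, first 30 bases: gaagaccttccattgatggacagttctttt
Myo1e probe A_51_P406583, chr9:70247354-70247413, + strand, first 30 bases: caggtagtattccactgtacccattcatga
The other probes lay at chr2:103821857-103821916 on the + strand for Lmo2, at chr1:9659134-9659193 on the - strand for Mybl1, at chr15:88985981-88986040 on the - strand for Plxnb2 and at chr15:25294128-25294187 on the - strand for Basp1.

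A level is given throughout as the log2 of a probe's background-subtracted signal relative to the 75th percentile of its array, so that 0 means a signal equal to that percentile. Differences are log2 differences, the type named first minus the other. The share of spots well above background was 55.5% to 62.8% per array, and precision is limited by how many arrays there are. Each lymphoma type lay on 1 slide of its own, so type and slide cannot be told apart. PCL1 differed from the other PCL tumours in its macrophage and monocyte markers, whose median over 15 genes, each centred on its mean over the tumours, was -0.96 in PCL1, against 2.74, 1.74 and 2.02 in PCL2, PCL3 and PCL4. All types had the B cell marker Cd79b, a chain of the B cell receptor, at 6.12 to 7.37 in PCL, 5.85 to 6.79 in MCL and 6.77 to 7.06 in BL. In bulk tumours, fewer cells of a type and less RNA per cell cannot be told apart.

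None of the 10 genes passed the test in any comparison of types. Tests were made with limma over all 20181 genes and 11 tumours, and a gene was called at a Benjamini-Hochberg adjusted p under 0.05. Between PCL and MCL 0 of the 10 were called, where 6.85% of all genes were, and 3 of the 10 had an unadjusted p under 0.05, where 24.3% of all genes had. Between PCL and BL 0 of 10 were called, against 0.659% of all genes, and 1 had an unadjusted p under 0.05, against 17.6%. Between MCL and BL 0 of 10 were called, against 6.62%, and 0 had an unadjusted p under 0.05, against 18.4%. In the moderated F test over the 3 types 0 of 10 were called, against 8.37% of all genes, with 2 at an unadjusted p under 0.05, against 26.5%. The lowest adjusted p of the 10 was 0.0604 for PCL against MCL, 0.231 for PCL against BL, 0.413 for MCL against BL and 0.0979 in the F test.

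The direction of the measured differences was mixed. In PCL 4 of the 10 had a higher mean than in MCL, where 48.1% of all genes had, with a median difference of -0.38, where the median of all genes was -0.03. Relative to BL, 2 of the 10 had a higher mean in PCL, where 58.7% of all genes had (median -0.43, all genes 0.09). In MCL 5 of the 10 had a higher mean than in BL, where 54.2% of all genes had (median -0.05, all genes 0.06). The tumours of the types did not overlap for 2 of the 10 between PCL and MCL, Mef2b and Mybl1, which is 20% of the members where 22.8% of all genes did not overlap. There was overlap for all 10 between PCL and BL and between MCL and BL, where 11% and 17.7% of all genes had none.

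**Figure D1:**
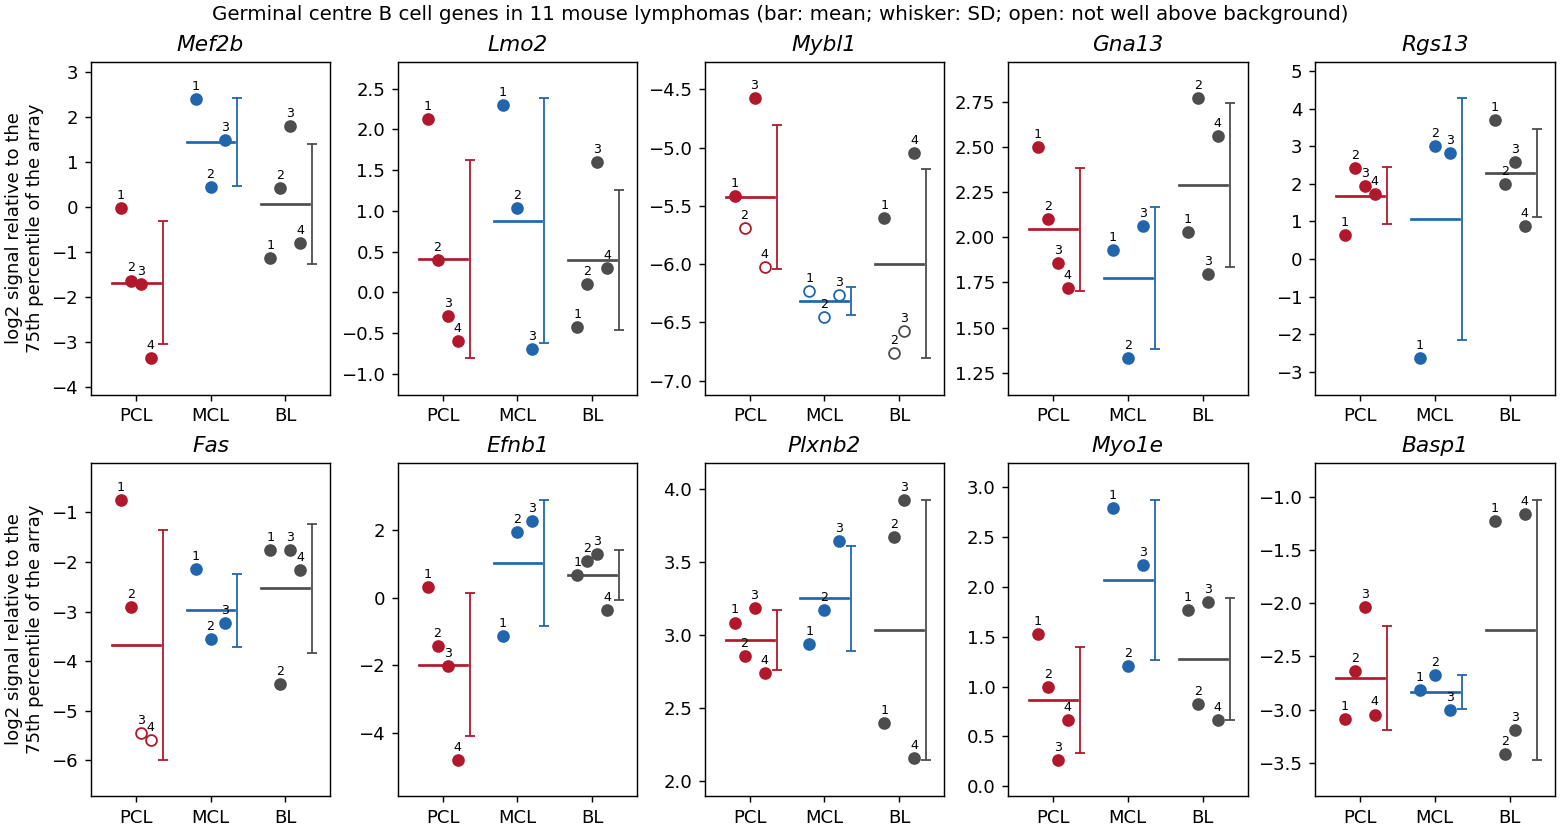
Log2 signal relative to the array's 75th percentile (vertical axis, a scale of its own per gene) of each of the 10 genes in PCL, MCL and BL tumours, with 1 numbered point per tumour, the mean as a bar and the SD as a whisker. Open points were not well above background. For Mef2b all 4 PCL tumours lie at or below -0.02 and all 3 MCL tumours at or above 0.45, while Rgs13 in MCL spans -2.65 to 3.01.

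Among the transcription regulators, Mef2b had the lowest adjusted p of the 10 genes. Mef2b encodes a MADS box transcription factor that acts upstream of Bcl6 in germinal centre B cells and is recurrently mutated in human lymphomas of that origin. Its level was -0.02, -1.64, -1.72 and -3.37 in PCL1 to PCL4, 2.40, 0.45 and 1.48 in MCL1 to MCL3, and -1.13, 0.42, 1.79 and -0.81 in BL1 to BL4. Each PCL tumour was thus below each MCL tumour, and the BL tumours overlapped both. The mean was -1.69 ± 1.37 in PCL (SD, n = 4), against 1.44 ± 0.97 in MCL (SD, n = 3), a difference of -3.13 ± 0.87 (SE) with a 95% interval from -5.08 to -1.18, or 8.75-fold in signal. This missed the threshold (limma, adjusted p = 0.0604). Relative to BL, at 0.07 ± 1.33 (SD, n = 4), the difference of PCL was -1.76 with a 95% interval from -3.56 to 0.05 (adjusted p = 0.297), and that of MCL was 1.37 with an interval from -0.57 to 3.32 (adjusted p = 0.473).

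The Mef2b result depended on PCL1, the PCL tumour with the highest Mef2b level. Without PCL1 the difference between PCL and MCL was -3.69 and was called (adjusted p = 0.0242), in a fit that called 12.2% of all genes, and so was the F test (14% of all genes called). It was also called with arrays weighted by their scatter (-3.67, adjusted p = 0.0112, 22.0% of all genes called, 23.5% in the F test), where PCL1 had the lowest weight of the 11, 0.38, and with the log2 values of the authors' table (-2.85, adjusted p = 0.0497, 7.54% called). The other Mef2b probe, in the DNA-binding domain, was well above background on 10 of 11 arrays, all but PCL4. It read -2.73, -4.53, -4.86 and -7.05 in PCL1 to PCL4, -0.57, -1.97 and -1.25 in MCL1 to MCL3, and -3.88, -2.47, -1.02 and -3.81 in BL1 to BL4. The PCL tumours again all lay below the MCL tumours, by -3.53 ± 0.97 (SE) on average (adjusted p = 0.0614 over 25296 probes), and over the 11 tumours, which share arrays and scaling, the levels of both probes correlated at r = 0.992.

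Lmo2 encodes a LIM-only adaptor that bridges DNA-binding factors and is a marker of human germinal centre lymphomas. Its level was 2.12, 0.39, -0.28 and -0.60 in PCL1 to PCL4, 2.30, 1.04 and -0.69 in MCL1 to MCL3, and -0.42, 0.10, 1.60 and 0.30 in BL1 to BL4. The types overlapped throughout, with 1 high tumour each in PCL, MCL and BL. The difference between PCL and MCL was -0.47 with a 95% interval from -2.29 to 1.34, and it changed sign to 0.23 without MCL1. That between PCL and BL was 0.01 with an interval from -1.67 to 1.69, and -0.56 without PCL1. That between MCL and BL was 0.49 with an interval from -1.33 to 2.30, and -0.22 without MCL1.

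Mybl1 encodes A-Myb, a relative of the Myb protein that centroblasts express. It was near the detection limit, well above background on 4 of 11 arrays: PCL1, PCL3, BL1 and BL4. Its level was -5.41, -5.69, -4.58 and -6.02 in PCL1 to PCL4, -6.23, -6.46 and -6.26 in MCL1 to MCL3, and -5.60, -6.77, -6.57 and -5.05 in BL1 to BL4. No MCL tumour had a Mybl1 signal well above background, and every PCL value was above every MCL value, though only 2 of the 4 PCL values were well above background. The measured means were -5.42 ± 0.62 in PCL (SD, n = 4), -6.32 ± 0.12 in MCL (SD, n = 3) and -6.0 ± 0.81 in BL (SD, n = 4), and the difference between PCL and MCL was not called (adjusted p = 0.254). No fold is given for Mybl1, since dim values enter every mean.

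Among the signalling genes, Gna13 varied least of all 10. It encodes the G alpha subunit that acts downstream of the receptor S1pr2 and keeps germinal centre B cells confined. With the brightest probe its level was 2.50, 2.10, 1.86 and 1.72 in PCL1 to PCL4, 1.93, 1.33 and 2.06 in MCL1 to MCL3, and 2.03, 2.77, 1.80 and 2.56 in BL1 to BL4. The tumours of all types overlapped. The difference was 0.27 between PCL and MCL (95% interval from -0.40 to 0.94), -0.24 between PCL and BL (-0.86 to 0.37) and -0.51 between MCL and BL (-1.18 to 0.15). Probe A_65_P10399 read -0.65, -1.16, -1.64 and -1.75 in PCL1 to PCL4, -1.33, -1.65 and -1.12 in MCL1 to MCL3, and -1.69, -0.34, -1.85 and -0.64 in BL1 to BL4, and it correlated with the brightest probe at r = 0.898 over the 11 tumours. The coding probe A_55_P2041784, which lies upstream of both, did not follow them closely (r = 0.349 and 0.291). It read -1.06, -2.28, -2.33 and -3.0 in PCL1 to PCL4, -3.09, -2.28 and -2.54 in MCL1 to MCL3, and -1.37, -1.89, -2.76 and -2.90 in BL1 to BL4. All 3 probes had their highest PCL value in PCL1 and their lowest in PCL4, and none was called in any comparison.

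Rgs13 encodes a GTPase-activating protein that dampens chemokine receptor signalling and is concentrated in germinal centre B cells. Its level was 0.63, 2.43, 1.95 and 1.72 in PCL1 to PCL4, -2.65, 3.01 and 2.82 in MCL1 to MCL3, and 3.71, 1.99, 2.58 and 0.88 in BL1 to BL4. MCL1 was the lowest of all tumours, while the other MCL tumours were as high as the upper BL tumours. The means were 1.68 ± 0.76 in PCL (SD, n = 4), 1.06 ± 3.21 in MCL (SD, n = 3) and 2.29 ± 1.18 in BL (SD, n = 4). The difference of PCL from MCL was 0.62 (95% interval from -2.16 to 3.41) and -1.23 without MCL1, and that of MCL from BL was -1.23 (-4.02 to 1.55) and 0.62 without MCL1. PCL and BL differed by -0.61 (-3.19 to 1.97). MCL1 also had the highest median of T cell markers, 0.94 against -0.05 and -0.60 in MCL2 and MCL3, and the lowest median of B cell identity markers of the 11 tumours, -0.49 against 0.37 and -0.20 in MCL2 and MCL3. The B cell identity median was nearly as low, -0.47, in PCL2, which had the highest Rgs13 level in PCL. The part of these markers in the result was not tested.

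Among the surface molecules, Fas had a wide spread in PCL. It encodes the death receptor that germinal centre B cells display. Its level was -0.74, -2.91, -5.45 and -5.59 in PCL1 to PCL4, -2.15, -3.55 and -3.23 in MCL1 to MCL3, and -1.76, -4.45, -1.75 and -2.17 in BL1 to BL4. PCL1 was the highest of all 11 tumours, and Fas was not well above background in PCL3 and PCL4, which had the lowest readings. The difference between PCL and MCL was -0.70 (95% interval from -3.25 to 1.85), with the sign turned to 0.16 under another background correction (normexp). It was -1.14 between PCL and BL (-3.50 to 1.22) and -0.44 between MCL and BL (-2.99 to 2.11).

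Efnb1 encodes ephrin B1, a ligand of Eph receptors that germinal centre B cells carry at their contacts with follicular helper T cells. Its level was 0.30, -1.44, -2.02 and -4.78 in PCL1 to PCL4, -1.12, 1.92 and 2.28 in MCL1 to MCL3, and 0.67, 1.09, 1.28 and -0.37 in BL1 to BL4. PCL2, PCL3 and PCL4 were below every MCL and BL tumour, while PCL1 was above MCL1 and BL4. The mean was -1.98 ± 2.11 in PCL (SD, n = 4), 1.02 ± 1.87 in MCL (SD, n = 3) and 0.67 ± 0.73 in BL (SD, n = 4). The difference of PCL was -3.01 relative to MCL (95% interval from -5.54 to -0.47, adjusted p = 0.140) and -2.65 relative to BL (-5.00 to -0.30, adjusted p = 0.231). In the weighted fit the Efnb1 difference of PCL from MCL was -4.21 and called (adjusted p = 0.0283), where 22.0% of all genes were called. That fit also called Mef2b between PCL and BL, where it called 10.8% of all genes. In the unweighted fit Efnb1 differed between MCL and BL by 0.36 (-2.18 to 2.89).

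Plxnb2 encodes plexin B2, a semaphorin receptor of germinal centre B cells that binds Sema4c. Its level was 3.09, 2.85, 3.19 and 2.74 in PCL1 to PCL4, 2.94, 3.17 and 3.65 in MCL1 to MCL3, and 2.40, 3.67, 3.93 and 2.15 in BL1 to BL4. The PCL and MCL values fell inside the range of BL, where BL2 and BL3 were high and BL1 and BL4 low. The difference was -0.29 between PCL and MCL (95% interval from -1.22 to 0.65), -0.07 between PCL and BL (-0.94 to 0.80) and 0.21 between MCL and BL (-0.72 to 1.15).

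Of the membrane and cytoskeleton genes, Myo1e encodes a single-headed myosin that links membranes to actin. Its level was 1.53, 0.99, 0.27 and 0.66 in PCL1 to PCL4, 2.79, 1.21 and 2.21 in MCL1 to MCL3, and 1.76, 0.83, 1.85 and 0.67 in BL1 to BL4. PCL1 was above MCL2, and the other PCL tumours were below all MCL tumours. The means were 0.86 ± 0.53 in PCL (SD, n = 4) and 2.07 ± 0.80 in MCL (SD, n = 3). The difference was -1.21 with a 95% interval from -2.22 to -0.20 (adjusted p = 0.138). With weighted arrays it was -1.37 and called (adjusted p = 0.0259), in a fit that called 22.0% of all genes. In the unweighted fit PCL differed from BL by -0.41 (-1.35 to 0.52) and MCL from BL by 0.79 (-0.22 to 1.80, adjusted p = 0.413).

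Basp1 encodes a membrane-bound acidic protein best known from growing nerve endings. Its level was -3.09, -2.63, -2.04 and -3.05 in PCL1 to PCL4, -2.82, -2.68 and -3.0 in MCL1 to MCL3, and -1.23, -3.41, -3.19 and -1.16 in BL1 to BL4. BL1 and BL4 were the highest of all tumours and BL2 and BL3 the lowest. Basp1 and Plxnb2, which are both on chromosome 15, thus ran against each other over the 11 tumours (r = -0.778), most visibly in BL. The Basp1 difference was 0.13 between PCL and MCL (95% interval from -1.13 to 1.40), -0.45 between PCL and BL (-1.62 to 0.72) and -0.59 between MCL and BL (-1.85 to 0.68).

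**Figure D2:**
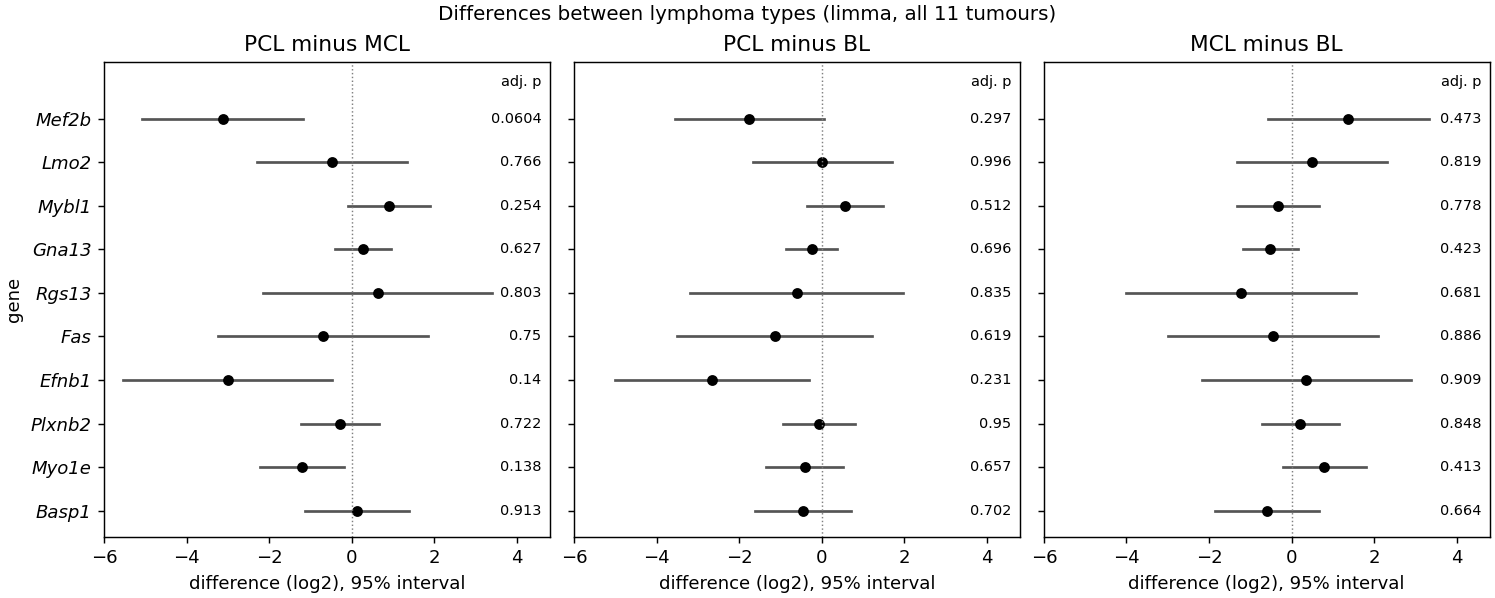
Log2 difference between types (horizontal axis) for each of the 10 genes (vertical axis), as a point with its 95% interval from the limma fit of all 11 tumours, and the adjusted p at the right of each panel. The PCL minus MCL interval of Mef2b runs from -5.08 to -1.18, and no adjusted p is under 0.05.

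**Figure D3:**
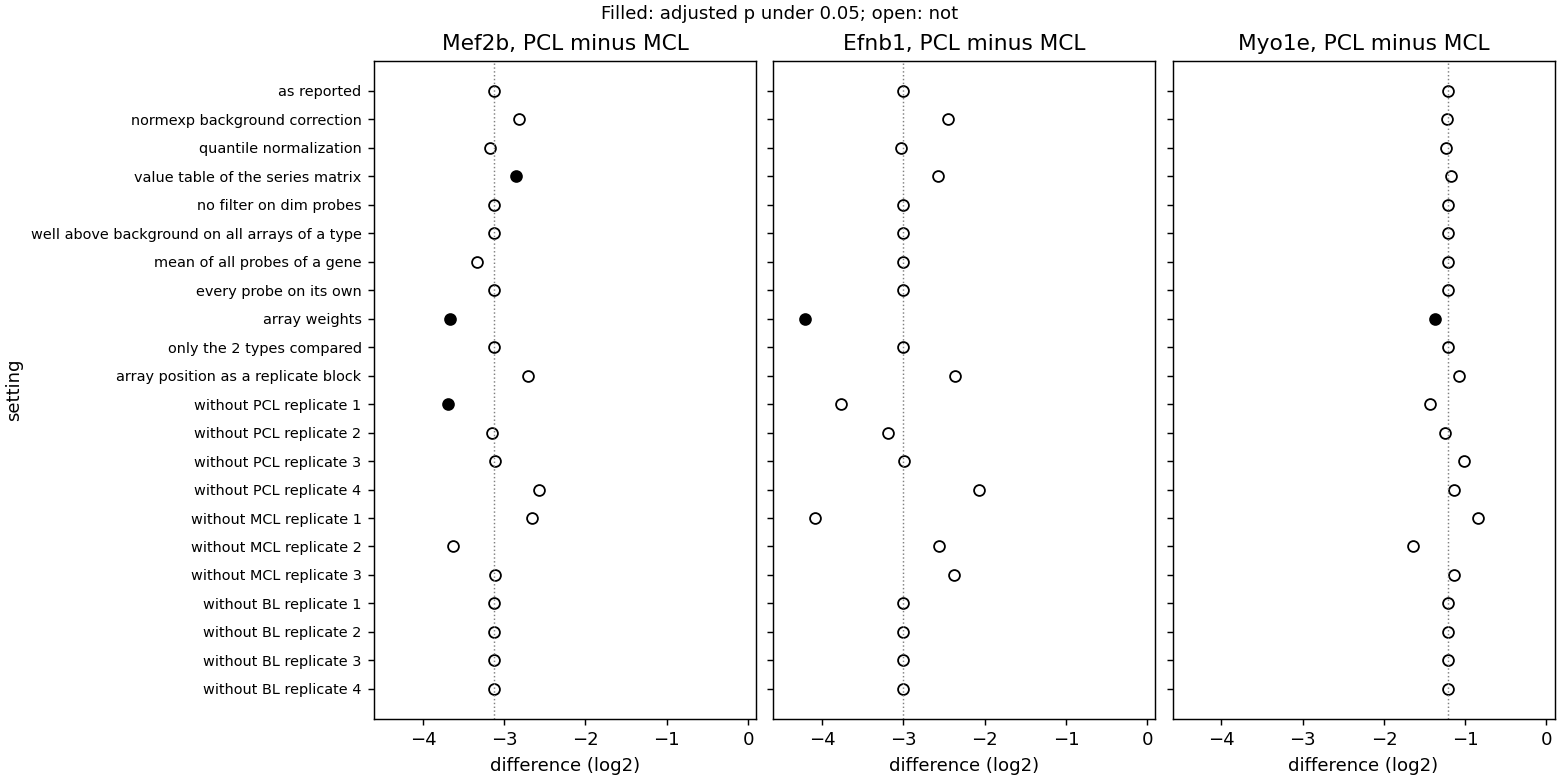
Log2 difference of PCL minus MCL (horizontal axis) for Mef2b, Efnb1 and Myo1e under each way of processing and with each tumour left out (vertical axis), filled where the adjusted p was under 0.05. Mef2b stayed between -3.69 and -2.57 and was called in 3 of 21 alternatives, and Efnb1 and Myo1e were called in 1 each.

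The germinal centre genes varied widely between tumours of the same type. The SD within types was above the median of all genes, 0.42, for 9 of the 10, and the median of the 10 was 1.00. Rgs13 had a within-type SD of 1.82, above 96.4% of all genes, Fas of 1.66 (95.2%) and Efnb1 of 1.66 (95.1%). It was 1.27 for Mef2b (90.5%) and 1.18 for Lmo2 (88.9%), while Gna13, at 0.40, was above 46.6% of genes. The standard error of a difference between PCL and MCL was accordingly 0.69 in the median of the 10 and 0.31 in the median of all genes. The share with a difference past the threshold is therefore read here beside the intervals given above, which for Fas, Rgs13, Lmo2, Mef2b and Efnb1 each span more than 3 log2 units.

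Within PCL, PCL1 and PCL4 often held the extreme values. PCL1 was the highest PCL tumour for 6 of the 10 (Fas, Lmo2, Myo1e, Mef2b, Gna13 and Efnb1), where 37.6% of all genes were highest in PCL1. PCL4 had the lowest reading for 7 of the 10, where 25.4% of all genes were lowest in PCL4. For Fas and Mybl1, which are among the 7, PCL4 and another PCL tumour were not well above background, so their order there is not settled. Both held for Mef2b, Lmo2, Gna13 and Efnb1. No test was made of these counts. The macrophage markers set PCL1 apart from the other PCL tumours in the opposite direction, at the medians given above, and their part in the result was not tested. Over the 11 tumours, which share the scaling of each array, Mef2b correlated with Myo1e at r = 0.770 and with Efnb1 at r = 0.712. Fas correlated with Lmo2 at r = 0.625 and with Myo1e at r = 0.603, Mybl1 with Basp1 at r = 0.678, and Rgs13 with Lmo2 at r = -0.615. The Mybl1 value rests mostly on dim readings, as Mybl1 was well above background on 4 of 11 arrays.

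**Figure D4:**
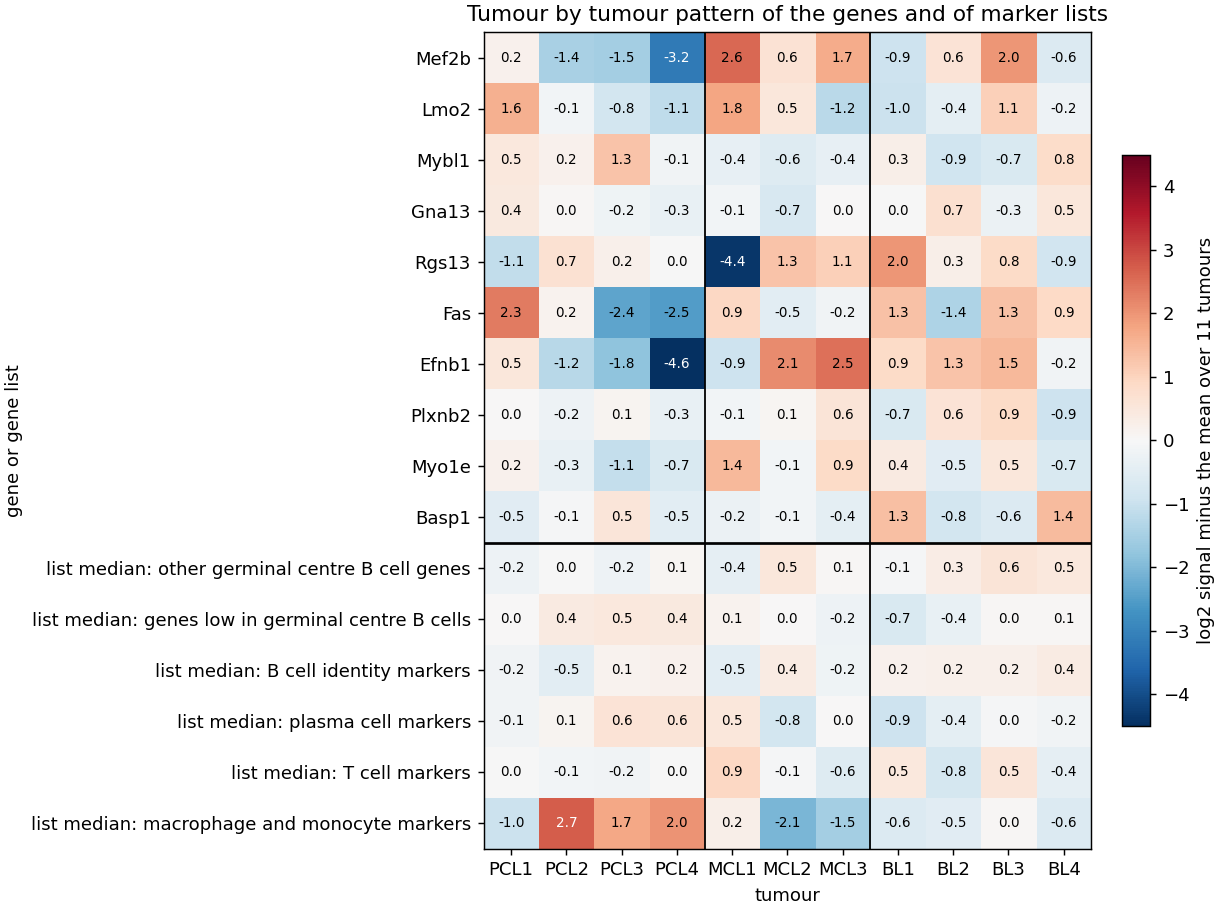
Log2 signal of each of the 10 genes (upper rows), and medians of gene lists (lower rows), in each tumour (columns), as the difference from the mean over the 11 tumours (colour scale and printed numbers). Mef2b and Efnb1 are low in PCL2 to PCL4, Rgs13 is low in MCL1, and the macrophage and monocyte median is -0.96 in PCL1, against 2.74, 1.74 and 2.02 in PCL2 to PCL4.

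For each of the 10 genes, the named genes whose levels followed it most closely were sought among the genes with a mean signal above the median, by Pearson correlation over the 11 tumours. Mef2b was most like Pstpip2 (r = 0.966) and Treml2 (0.962), Efnb1 like Tnfrsf19 (0.955) and Sapcd1 (0.947), Myo1e like Tcf4 (0.951) and Cyb5r3 (0.949), and Rgs13 like Diablo (0.940) and Prdx5 (0.924). Fas was most like Impact (0.924) and Adam9 (0.906), Gna13 like Cc2d1b (0.906) and Usp45 (0.901), and Basp1 like Fancl (0.892) and Cmas (0.890). The closest to Lmo2 were Id2 (0.892) and Marcks (0.874), to Mybl1 Traf3ip3 (0.891) and Slc35b1 (0.868), and to Plxnb2 Lingo3 (0.872) and Adamts14 (0.840). With about 7687 candidates per gene and 11 points, these values are descriptions. Those of Mybl1 rest mostly on dim readings, as it was well above background on 4 of 11 arrays.

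Other genes of the germinal centre programme were taken from a list of 24, of which 21 were measured well enough to test. Between PCL and MCL 3 of these were called, all lower in PCL, where 4.75% of all genes were lower. They were Spib, an ETS factor of B cells, at 3.26 ± 0.58 in PCL (SD, n = 4) against 5.33 ± 0.03 in MCL (SD, n = 3; adjusted p = 0.00825), Tnfrsf13c, the BAFF receptor, with a difference of -2.0 (adjusted p = 0.0226), and Ptpn6, a phosphatase that dampens antigen receptor signals, with -1.29 (adjusted p = 0.0477). Between PCL and BL 0 were higher, where 0.456% of all genes were, and 2 were lower in PCL, where 0.203% of all genes were: Spib by -1.63 (adjusted p = 0.0446) and Ezh2, the histone methyltransferase of dividing centroblasts, by -1.53 (adjusted p = 0.0436). Between MCL and BL limma called 0 of 21, where 6.62% of all genes were called. An unadjusted p under 0.05 was found for 8 of the 21 between PCL and MCL, where 24.3% of all genes had one. It was found for 10 between PCL and BL, where 17.6% had one, and for 0 between MCL and BL, where 18.4% had one. The median difference of the 21 was 0.07 between PCL and MCL, -0.16 between PCL and BL and -0.49 between MCL and BL.

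Bcl6, the central repressor of the germinal centre state, was not called. Its level was -2.71, -0.56, -1.03 and -0.75 in PCL1 to PCL4, -1.75, -2.10 and -3.38 in MCL1 to MCL3, and -1.23, -2.08, -2.27 and -1.04 in BL1 to BL4, so that PCL1 was lower than the other PCL tumours while its Mef2b was higher. S1pr2, the receptor that acts through Gna13, was at -3.0, -2.37, -5.63 and -3.93 in PCL1 to PCL4, -3.81, -1.73 and -2.41 in MCL1 to MCL3, and -4.59, -3.10, -2.32 and -4.88 in BL1 to BL4, with overlap of all types. Gcsam, a germinal centre signalling adaptor, was detected above background on none of the 11 arrays.

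Of 16 genes of the dark and light zones, 15 were tested. Between PCL and MCL 2 were called lower in PCL, where 4.75% of all genes were, and between PCL and BL 1 was, where 0.203% of all genes were. The 2 lower than in MCL are both known from light zone or activated B cells: Bcl2a1d, a survival protein whose probe can share signal with near-identical copies, by -3.14 (adjusted p = 0.0453), and Il4i1, an amino acid oxidase, by -2.72 (adjusted p = 0.00996). Il4i1 was at -1.10, 0.09, 0.72 and -0.48 in PCL1 to PCL4, 2.99, 2.49 and 2.11 in MCL1 to MCL3 and 1.80, 1.72, 2.79 and 2.53 in BL1 to BL4, and it was also lower in PCL than in BL by -2.41 (adjusted p = 0.0364). Every PCL tumour was below every MCL and BL tumour. The list's median difference was -0.25 between PCL and MCL, -0.35 between PCL and BL and 0.24 between MCL and BL, where limma called 0 of 15 and 6.62% of all genes. An unadjusted p under 0.05 was found for 4, 3 and 1 of the 15 in these comparisons, where 24.3%, 17.6% and 18.4% of all genes had one.

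Genes that germinal centre B cells keep low, such as Cd38, Ccr7, Klf2 and Bcl2, were summarised from a list of 16, all tested. In PCL 11 of 16 had a higher mean than in MCL, where 48.1% of all genes had (median difference 0.52, all genes -0.03). Relative to BL 13 of 16 had a higher mean in PCL, where 58.7% of all genes had (0.64, all genes 0.09). In MCL 12 of 16 had a higher mean than in BL, where 54.2% of all genes had (0.41, all genes 0.06). Bcl2 and Cd38 were among those with a lower mean in PCL than in MCL, and Bcl2 was also lower than in BL. Bcl2 was at 2.09, 0.22, 0.295 and -0.70 in PCL1 to PCL4 and 1.82, 2.46 and 2.13 in MCL1 to MCL3. Cd55, a complement regulator, was higher in PCL than in MCL by 1.84 (adjusted p = 0.00631), where 2.11% of all genes were called higher. It was at 3.1 ± 0.30 in PCL (SD, n = 4) and 1.26 ± 0.54 in MCL (SD, n = 3). Cd55 was the only gene of this list called in any of the 3 comparisons. An unadjusted p under 0.05 was found for 7 of 16 between PCL and BL, where 17.6% of all genes had one. It was found for 4 between PCL and MCL, where 24.3% had one, and for 1 between MCL and BL, where 18.4% had one. Sdc1 and Prdm1, which mark the step to plasma cells, had differences of 2.04 and 0.74 between PCL and MCL and of 3.04 and 1.68 between PCL and BL, none of them called. Sdc1 was at -3.25 in PCL1, within the MCL range of -4.14 to -2.50. Xbp1 and Irf4, plasma cell markers of the same list, had slightly lower means in PCL than in MCL.

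Partners of the 10 genes were followed in 5 further lists. In the Fas death receptor pathway 10 of 11 genes were tested, as the ligand gene Fasl was well above background on 2 arrays only. Casp8, the initiator caspase below Fas, was 1.06 higher in PCL than in MCL (adjusted p = 0.0163), where 2.11% of all genes were higher. Bid, which carries the death signal to mitochondria, was lower in PCL by -0.95 relative to MCL (adjusted p = 0.0259) and by -1.65 relative to BL (adjusted p = 0.0105). Of all genes, 4.75% were called lower in PCL than in MCL and 0.203% lower than in BL. Fcmr, the Fc receptor for IgM, first described as an inhibitor of Fas signalling, was at 3.58 ± 0.85 in PCL (SD, n = 4) against 6.64 ± 0.40 in MCL (SD, n = 3; adjusted p = 0.0196). Between MCL and BL limma called 0 of the 10, where 0.203% of genes were lower and 6.42% higher in MCL. An unadjusted p under 0.05 was found for 4 of the 10 between PCL and MCL, 4 between PCL and BL and 1 between MCL and BL. Of all genes, 24.3%, 17.6% and 18.4% had one. The list's medians were -0.39, -0.53 and -0.16 for PCL against MCL, PCL against BL and MCL against BL.

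In the list of 15 genes around Gna13 and the RGS proteins, all were tested and 2 were called, both relatives of Rgs13 that were higher in PCL than in MCL, where 2.11% of all genes were. Rgs16 was at 2.07 ± 1.03 in PCL (SD, n = 4) against -2.10 ± 2.07 in MCL (SD, n = 3; difference 4.17, adjusted p = 0.0397). Rgs1 was at 1.26 ± 0.75 in PCL against -1.76 ± 1.63 in MCL (difference 3.03, adjusted p = 0.0452). The call was lost in 10 of 21 alternatives for Rgs16 and in 14 for Rgs1. Of the other RGS genes of the list, Rgs14 (-0.86, limma adjusted p = 0.118) and Rgs19 (-0.43, adjusted p = 0.197) had a lower mean in PCL than in MCL. Rgs2 (2.19), Rgs10 (0.84) and Rgs18 (0.96) had a higher one, also not called. The guanine exchange factors and kinases below Gna13, such as Arhgef1 and Rock1, were not called. The list's medians were 0.10, -0.13 and -0.24 for PCL against MCL, PCL against BL and MCL against BL.

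Of 16 genes in the list of Myb and Mef2 relatives and Lmo2 partners, 14 were tested. Mef2a, a relative of Mef2b, was at -0.06 ± 0.13 in PCL (SD, n = 4), 1.01 ± 0.42 in MCL (SD, n = 3) and -0.05 ± 0.20 in BL (SD, n = 4). It was lower in PCL than in MCL by -1.08 (adjusted p = 0.0213) and higher in MCL than in BL by 1.06 (adjusted p = 0.0170), and it was the only gene of the list called in these 3 comparisons. Of all genes, 4.75% were called lower in PCL than in MCL and 6.42% higher in MCL than in BL. Mef2c, a relative that B cell development and activation use, was at 0.30, 0.12, -0.20 and -1.17 in PCL1 to PCL4, -0.19, 0.43 and -0.51 in MCL1 to MCL3, and 0.26, -0.35, 0.29 and -0.36 in BL1 to BL4. The medians were -0.03, -0.22 and -0.02 for PCL against MCL, PCL against BL and MCL against BL.

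Among ephrin B1 and plexin B2 partners 15 of 18 were tested, and Ephb1 and Plxnb1 were detected above background on none of the arrays. Sema4a, a semaphorin, and Ephb2, a receptor of ephrin B1, were higher in MCL than in BL by 1.25 (adjusted p = 0.0237) and 0.70 (adjusted p = 0.0410), where 6.42% of all genes were called higher. The Sema4a call was lost in 9 of 21 alternatives. That of Ephb2 was lost in 16 of 21, normexp among them, where its difference was 0.30. The list's medians were -0.41 for PCL against MCL, 0.29 for PCL against BL and 0.65 for MCL against BL. Of 8 tested relatives of Myo1e and Basp1, Myo1f, a class I myosin known from myeloid cells, was 3.66 higher in PCL than in MCL (adjusted p = 0.0161), at -1.13 ± 0.80 in PCL (SD, n = 4) against -4.79 ± 1.40 in MCL (SD, n = 3), where MCL2 was not well above background. The medians of these relatives were -0.00, 0.06 and 0.04 for PCL against MCL, PCL against BL and MCL against BL. Over all distinct genes of these and the marker lists, 171 in number and without the 10, 8 were higher and 11 lower in PCL than in MCL, where 2.11% and 4.75% of all genes were. Between PCL and BL 0 were higher and 4 lower in PCL, where 0.456% and 0.203% of all genes were, and between MCL and BL 6 were higher and 0 lower in MCL, where 6.42% and 0.203% were.

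Markers of other cells in the tumours were read from further lists. All 15 macrophage and monocyte genes tested had a higher mean in PCL than in MCL (median difference 2.6) and than in BL (1.87), where 48.1% and 58.7% of all genes had. An unadjusted p under 0.05 was found in limma for 13 of the 15 between PCL and MCL, where 24.3% of all genes had one. It was found for 8 between PCL and BL, where 17.6% had one, and for 0 between MCL and BL, where 18.4% had one. After adjustment 2 were called higher in PCL than in MCL, where 2.11% of all genes were: Vcam1 (4.27, adjusted p = 0.0397) and Msr1 (2.07, adjusted p = 0.0314). Msr1 was not well above background in MCL1 and MCL3, and its difference was 1.21 with normexp and 0.94 in the authors' table, not called in either; the call was lost in 12 of 21 alternatives. Vcam1 was at -2.18 in PCL1, against 2.02, 1.49 and 1.51 in PCL2, PCL3 and PCL4. By tumour, the list's median ranged from -0.96 to 2.74 in PCL, -2.05 to 0.25 in MCL and -0.62 to 0.04 in BL. The part of macrophage content in the differences of PCL from MCL, Mef2b and Myo1f among them, was not tested.

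T cell markers had medians from -0.15 to 0.00 in PCL, -0.60 to 0.94 in MCL and -0.79 to 0.55 in BL. Of 12 tested genes only Cd4 was called. It was lower in PCL than in MCL by -0.78 (adjusted p = 0.0376) and higher in MCL than in BL by 0.96 (adjusted p = 0.0145). Of all genes, 4.75% were called lower in PCL than in MCL and 6.42% higher in MCL than in BL. In PCL 6 of the 12 had a higher mean than in MCL, where 48.1% of all genes had (median difference 0.22). The Cd4 calls were lost in 10 and 5 of 21 alternatives. Of 5 tested follicular helper T cell genes, Maf was called just under the threshold, with a measured difference of 3.01 between PCL and MCL (adjusted p = 0.0495). Maf was not well above background in MCL2 and MCL3, and the call was lost in 17 of 21 alternatives, with differences of 1.78 with normexp and 1.56 in the authors' table. The helper cytokine gene Il21 was detected above background in no tumour. Of 8 tested follicular dendritic and stromal cell genes limma called 0 in the 3 comparisons, and 0 had an unadjusted p under 0.05. For PCL against MCL, PCL against BL and MCL against BL, 6.85%, 0.659% and 6.62% of all genes were called. In this order 24.3%, 17.6% and 18.4% of all genes had an unadjusted p under 0.05. Of 6 tested endothelial genes 4 had a higher mean in MCL than in BL, while Cdh5 (-0.54) and Pecam1 (-0.41) had a lower one. Kdr was called higher in MCL than in BL by 0.82 (adjusted p = 0.0487), where 6.42% of all genes were. The Kdr call was lost in 16 of 21 alternatives. Of the mast cell and basophil markers, 3 of 12 were tested and 7, Cpa3 and Fcer1a among them, were detected above background in no tumour. Hdc, the histidine decarboxylase gene, was lower in PCL than in MCL by -3.30 (adjusted p = 0.0302), where 4.75% of all genes were called lower. It was higher in MCL than in BL by 3.38 (adjusted p = 0.0240), where 6.42% of all genes were called higher. Tpsb2 and Gata1, the other tested markers, were not called. Both went the other way between PCL and MCL, so that 2 of 3 had a higher mean in PCL (list median 0.32).

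B cell identity markers were all tested, and Blk, a Src family kinase of B cells, was the only one of 10 called. It was lower in PCL than in MCL by -1.26 (adjusted p = 0.0396), where 4.75% of all genes were called lower. The Blk call was lost in 13 of 21 alternatives. In PCL 7 of the 10 had a higher mean than in MCL, where 48.1% of all genes had (median difference 0.14). The medians of the 10 markers by tumour ranged from -0.47 to 0.18 in PCL, -0.49 to 0.37 in MCL and 0.18 to 0.36 in BL. None of 9 plasma cell markers, 4 of which also stand in the list of genes low in germinal centre B cells, was called by limma in the 3 comparisons. Of all genes, 6.85%, 0.659% and 6.62% were called for PCL against MCL, PCL against BL and MCL against BL. In this order 3, 4 and 0 of the 9 had an unadjusted p under 0.05, where 24.3%, 17.6% and 18.4% of all genes had one. A higher mean in the type named first was found for 5, 8 and 8 of 9, where 48.1%, 58.7% and 54.2% of all genes had one. Jchain, the chain that joins IgM and IgA, was at 0.47, 3.46, 0.09 and 0.67 in PCL1 to PCL4, 0.03, -3.38 and -3.49 in MCL1 to MCL3, and -3.54, -5.85, -1.37 and -2.04 in BL1 to BL4. Each PCL value was thus above each MCL and BL value, with a difference of 3.45 from MCL (adjusted p = 0.128) and of 4.38 from BL (adjusted p = 0.106).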

How the data were processed

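RNA of 11 tumours was hybridised to one-colour Agilent arrays. The deposited scanner files hold spot brightness from Agilent Feature Extraction 10.7.3.1, an intensity on a linear scale, background-subtracted and detrended within the array per the file headers and not normalized between arrays. The authors' value table is in log2 units, as its values show: on every array it ranks the spots as their median signal does (Spearman correlation of 1), and its column medians are 7.25 to 7.26. No source used here gives how it was made, and it served as an alternative.

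Flagged spots, 121 to 164 of 43020 per array, were left out, 0 spots were saturated, log2 spots of a probe were averaged, and the array's 75th percentile (1067 to 1632 intensity units) was subtracted. Substitute values set by the software for spots not above background made up 21.5% to 29.2% of spots, so levels of dim probes depend on them. Of 39429 probes, 46 that had lost all spots on an array were dropped, 25296 were well above background on at least 3 arrays, and the brightest per gene gave 20181 genes. Gene names were updated through an annotation of assembly GRCm38.p6, for names only, which matched 26553 probes by accession and 2596 by symbol. All 10 genes passed this filter, which Mybl1 met on 4 arrays.

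Differences were fitted with limma 3.58.1 in R 4.3.3 on all 11 arrays with a mean per type (8 residual degrees of freedom), adjusted by Benjamini-Hochberg over all genes, and the script was tested on simulated data. Replicate numbers are array positions on a slide. Over 10 pairs of tumours at the same position, correlations of deviations from the type means ran from -0.05 to 0.17, with 3 over 0.1, so positions were not taken to pair the tumours. Alternatives were normexp background correction, quantile normalization, the authors' table, other filters on dim probes, all probes of a gene, array weights, fits of only the types compared, position as a block, and leaving out each tumour. Named beyond the 10 genes were list genes called in any comparison, up to 3 per list with the largest difference, the 2 genes most alike each of the 10, and, chosen after their values were seen, Bcl6, S1pr2, Mef2c and other single genes given as examples. The genes and lists were chosen with earlier results of these data known.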

Additional observations from a re-analysis of the deposited data

Results flagged for a closer look

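Fas in BL2 stood far from the other Burkitt tumours. Its log2 level there was -4.45, against -2.17 in the nearest BL tumour, and the gap was 0.845 of the range of the 4 BL tumours, above the 95% critical value of Dixon's ratio for 4 values. It was the only one marked of 26 groups of 4 tumours checked over the 13 probes, and chance marks about 1 in 20 such groups.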

How the results depend on the processing

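Of the 30 differences of the 10 genes between types, 20 kept their sign under all alternatives run, 21 for each gene but Mybl1, which a stricter filter on dim probes removed, and none of the other 10 was called in any of them. The count of the 10 called between PCL and MCL was 0 as reported, 1 with the authors' table, 3 with array weights, and 0 to 1 when 1 tumour was left out, the 1 being Mef2b without PCL1. Between PCL and BL it was 1, Mef2b, with array weights (-2.62, adjusted p = 0.0491), and 0 in the other alternatives. In the F test it was 2 with array weights, Mef2b and Efnb1, and 0 to 1 when 1 tumour was left out. Between MCL and BL it was 0 throughout. Sign changes were those of Lmo2 with array weights (PCL against BL -0.62, MCL against BL -0.31), Fas with normexp (PCL against MCL 0.16) and Efnb1 with array position as a replicate block (MCL against BL -0.28). With 1 tumour left out, the differences that changed sign were, at their lowest and highest, for PCL against MCL those of Rgs13 (-1.23 without MCL1 to 1.60), Lmo2 (-1.26 to 0.23 without MCL1) and Basp1 (-0.090 without PCL3 to 0.26). For PCL against BL they were those of Lmo2 (-0.56 without PCL1 to 0.41, and -0.26, -0.086 and -0.019 without BL1, BL2 and BL4) and Plxnb2 (-0.37 to 0.22 without BL3, and 0.14 and 0.0046 without BL2 and PCL4). For MCL against BL they were those of Rgs13 (-2.21 to 0.62 without MCL1), Lmo2 (-0.22 without MCL1 to 1.27), Efnb1 (-0.27 without MCL3 to 1.43, and -0.092 without MCL2) and Plxnb2 (-0.080 without BL4 to 0.51). The causes were not tested. The replicate block called 0 of the 10 in each comparison.

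Of the 29 called differences of list genes, 0 changed sign and 3 kept the call throughout, those of Spib, Il4i1 and Cd55 between PCL and MCL. Counts over all genes moved more: between PCL and MCL 1383 genes were called as reported, 194 with normexp, 686 without a filter on dim probes, 743 with those types alone, 390 with the replicate block and 4433 with array weights, and 330 (without PCL2) to 2457 (without PCL1) with 1 tumour left out. Between PCL and BL the 133 became 13 with normexp, 85 without the filter, 209 with a stricter filter, 65 with the block, 2181 with array weights and 5 (without PCL2) to 1080 (without PCL1) with 1 tumour left out. Between MCL and BL the 1336 became 65 with normexp, 746 with quantile normalization, 675 with the authors' table, 290 with those types alone, 361 with the block and 668 (without MCL1) to 1365 (without PCL1). With normexp 45.4% of the genes called between PCL and MCL were higher in PCL, against 30.7% as reported, and it moved the median difference of all genes to 0.16 from -0.03. Between PCL and BL 69.2% of calls were higher in PCL as reported, 38.5% with normexp, 57.7% with quantile normalization and 51.9% with the authors' table. Dim signals limit Mybl1, Fas in PCL3 and PCL4, the other Mef2b probe in PCL4, and, among called list genes, Maf in MCL2 and MCL3, Msr1 in MCL1 and MCL3 and Myo1f in MCL2, so these differences are not exact.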
